A study of Homo sapiens with 13 samples.

Results

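The 10 genes described here encode subunits of RNA polymerase II (Pol II): POLR2A, POLR2B, POLR2C, POLR2D, POLR2E, POLR2G, POLR2H, POLR2I, POLR2K and POLR2L. They were chosen by name, with earlier results of these data known, and are 10 of the 14576 genes with reads in the 3’ READS libraries. 3’ READS is a method that reads mRNA from its poly(A) end, so that each read marks an mRNA 3’ end. Both groups were HEK293 Flp-in T-REx cells, a human embryonic kidney line, carrying an integrated pcDNA5 plasmid with an Avitag-labelled, α-amanitin resistant Rpb1, which was either wild-type (5 libraries) or R749H, a slowly elongating form (4 libraries). The labels give 2 µg/ml doxycycline for 24 hr to induce the plasmid and then 2.5 µg/ml α-amanitin for 42 hr. Both groups had these treatments, under hygromycin and blasticidin. The study's methods give a shorter time of doxycycline before α-amanitin, and state that doxycycline was also present during the α-amanitin treatment. The groups are therefore 2 cell lines, and effects of R749H and other differences between the lines cannot be told apart. The study calls the libraries biological replicates. In bulk RNA, a change in the share of cells that express a gene and a change in RNA per cell cannot be told apart.

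Pol II makes all mRNA. POLR2A (Rpb1) and POLR2B (Rpb2) form the active centre, and the POLR2A C-terminal domain (CTD) carries the repeats that are phosphorylated during transcription. POLR2C, POLR2K and POLR2L belong to the module on which the enzyme is assembled, POLR2D and POLR2G form the stalk that contacts emerging RNA, POLR2I takes part in proofreading, and POLR2E, POLR2H, POLR2K and POLR2L are also subunits of the other nuclear polymerases. α-Amanitin binds the wild-type endogenous POLR2A protein and leads to its degradation, and cells then depend on the resistant form.

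Depth within 5 kb downstream of stop codons ranged from 2479851 to 10135014 reads in the wild-type group and from 3863468 to 6475987 in the other. R749H replicate 3 stood apart, with 41033 3’ end positions, of which 6.60% rested on 1 read; this share was 30.05% to 36.2% elsewhere. Levels are given as RPM, the reads of a gene per 1000000 reads of its library after scaling with TMM factors, which take most genes as not changing. The keratin genes KRT8 (43.8 to 101 RPM) and KRT18 (323 to 842 RPM) and VIM (74.8 to 142 RPM in wild-type and 55.3 to 70.02 in R749H libraries, lower in each of the latter) were read in every library, whereas the neurofilament genes NEFL and NEFM, also looked for, had 0 and 2 reads in all. Of the genes of other cell types, PTPRC, PECAM1 and DES had 0 reads, ALB and CD3E had 3 reads each, and APOA1 had 66, with 0 to 1.25 RPM in wild-type and 1.15 to 4.38 in R749H libraries.

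The poly(A) sites of POLR2A, POLR2L, POLR2C and POLR2E are shown first, because the gene results below turn on reads that end there. Each line gives 30 bases of the GRCh37 reference, 5’ to 3’ on the strand of the gene, whose last base is the most used 3’ end of the site, with the poly(A) signal hexamer in capitals.
POLR2A, chr17:7417900-7417929, plus strand: aagtttaAATAAAgtttactaattttgacc
POLR2L, chr11:840205-840234, minus strand: ggaaccatccAGTAAAggtctttcagaacc
POLR2C upstream site, chr16:57505567-57505596, plus strand: cccaccaAATAAAcatgatatttcattctc
POLR2C downstream site, chr16:57505892-57505921, plus strand: ttttggcAATAAAgagcacaacataatctc
POLR2E main site, chr19:1088166-1088195, minus strand: gttttgagcaAATAAAtttgcttgatacag
POLR2E distal site, chr19:1085110-1085139, minus strand: ctgtaactccATTAAAcctctttcttttgt
The hexamers searched, on the strand of the gene, were AATAAA (taken before any other), then ATTAAA (taken next), then AGTAAA followed by TATAAA followed by CATAAA followed by GATAAA followed by AATATA followed by AATACA followed by AATAGA followed by ACTAAA followed by AAGAAA followed by AATGAA followed by TTTAAA, in that order of preference where several overlapped or occurred together. AATAAA was present in this window at 60.8% of the 12062 poly(A) sites tested, ATTAAA at a further 16.1%, another of the hexamers at 14.1% and none at 9.11%. The most used site of POLR2L carried AGTAAA, and that of POLR2G carried TATAAA, the only member sites among those tested with a hexamer other than AATAAA or ATTAAA. These matches describe the letters in the window and do not show that a hexamer is used.

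POLR2A mRNA was higher in R749H than in wild-type cells. On the RPM scale, the wild-type libraries 1 to 5 had 60.5, 70.4, 96.7, 70.5 and 125, and the R749H libraries 1 to 4 had 253, 385, 315 and 520. The lowest R749H library was above the highest wild-type library. The means were 84.5 ± 26.1 (SD, n = 5) and 368 ± 114 (SD, n = 4), and they rest on 189 to 774 reads in wild-type and 1183 to 2254 in R749H replicates. The change was 2.12 ± 0.23 (log2, SE), or 4.35-fold with a 95% confidence interval of 3.09 to 6.13, with an adjusted p of 2.13e-05 in limma. It ranked 49 in size of increase among the 9495 genes tested.

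**Figure D1:**
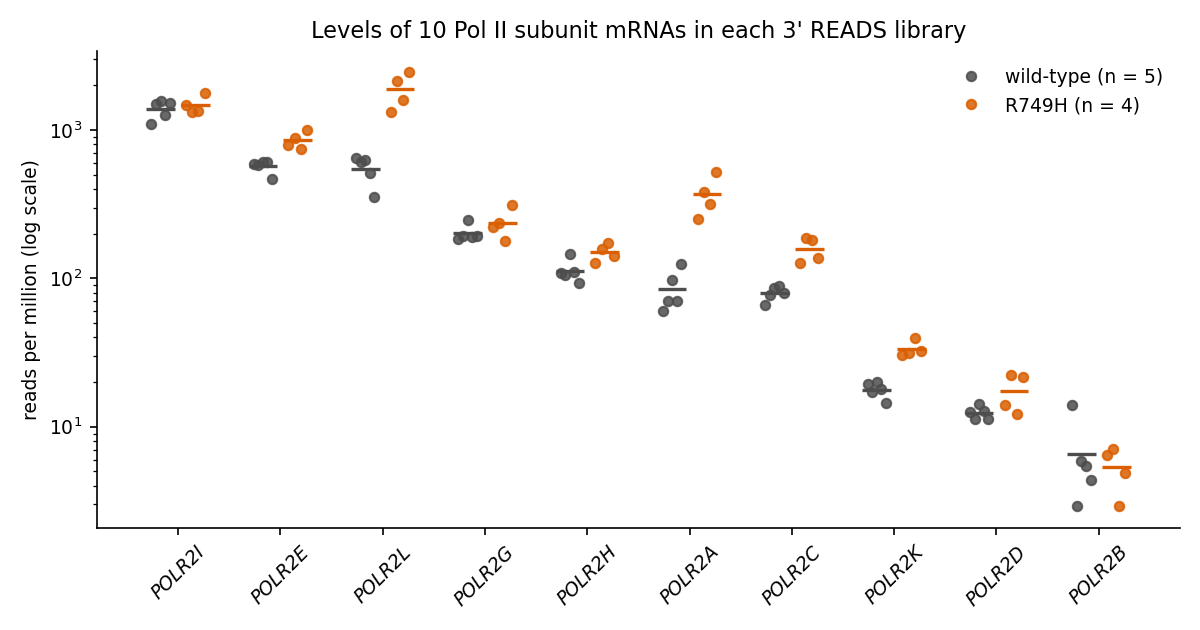
Level of each Pol II subunit mRNA in RPM (reads per 1000000; vertical axis, log scale) in the 5 wild-type and 4 R749H libraries, with each point 1 library and each line the mean. The R749H points of POLR2A, POLR2L, POLR2C, POLR2K and POLR2E lie above all wild-type points of the same gene, and those of the other 5 genes overlap.

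Of the 10 members, 5 were called higher, POLR2A, POLR2L, POLR2C, POLR2K and POLR2E, and none was called lower. Over all genes tested, 10.9% were called higher and 12.9% lower (23.9% in all, adjusted p in limma under 0.05). In the same 5 members every R749H library exceeded every wild-type library, which held for 9.72% of all genes, while the reverse held for 10.1% of all genes and no member. The median change of the 10 members was 0.51, against -0.07 for all genes. The reads of the 10 genes together came to 3023 ± 262 RPM in wild-type (SD, n = 5) and 5176 ± 914 in R749H libraries (SD, n = 4). This sum is weighted to the most read genes. POLR2L alone had means of 549 and 1878 RPM in wild-type and R749H libraries, and POLR2I of 1389 and 1480.

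POLR2L, a small zinc-binding subunit shared between polymerases, had the second largest change. Wild-type libraries had 650, 605, 627, 513 and 351 RPM and R749H libraries 1329, 2138, 1603 and 2441. The groups did not overlap, and the change was 1.77 ± 0.21 (log2, SE; adjusted p = 4.92e-05, limma), or 3.40-fold. In level it took the third place among the members in wild-type cells and the first in R749H cells.

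POLR2C is the scaffold partner of the assembly module. It had 66.5, 77.04, 85.9, 88.5 and 79.6 RPM in wild-type and 127, 186, 182 and 137 in R749H libraries, a change of 0.98 ± 0.18 (log2, SE; adjusted p = 0.00106, limma). The groups did not overlap. POLR2K, another small shared subunit, had 14.5 to 19.9 RPM in wild-type (median 18.0) and 30.3, 31.5, 39.4 and 32.5 in R749H libraries, a change of 0.91 ± 0.19 (adjusted p = 0.0034, limma), again without overlap.

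POLR2E, a shared subunit of the jaw that grips downstream DNA, changed least among the called members. It had 587, 585, 608, 603 and 467 RPM in wild-type and 788, 878, 739 and 995 in R749H libraries, a change of 0.57 ± 0.16 (log2, SE; adjusted p = 0.0148, limma). The groups did not overlap, with wild-type replicate 5 the lowest of all. Scaled to a fixed read total alone, as the authors did, the median of all genes was -0.41, and POLR2E and POLR2K were no longer called, at 0.23 (adjusted p = 0.225, limma) and 0.56 (adjusted p = 0.0508, limma). POLR2A (1.78), POLR2L (1.42) and POLR2C (0.63) were still called on that scale, where 14.1% of all called genes were higher, against 45.8% with TMM. Of all 9495 genes tested, 431 were called higher and 2628 lower on that scale.

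**Figure D2:**
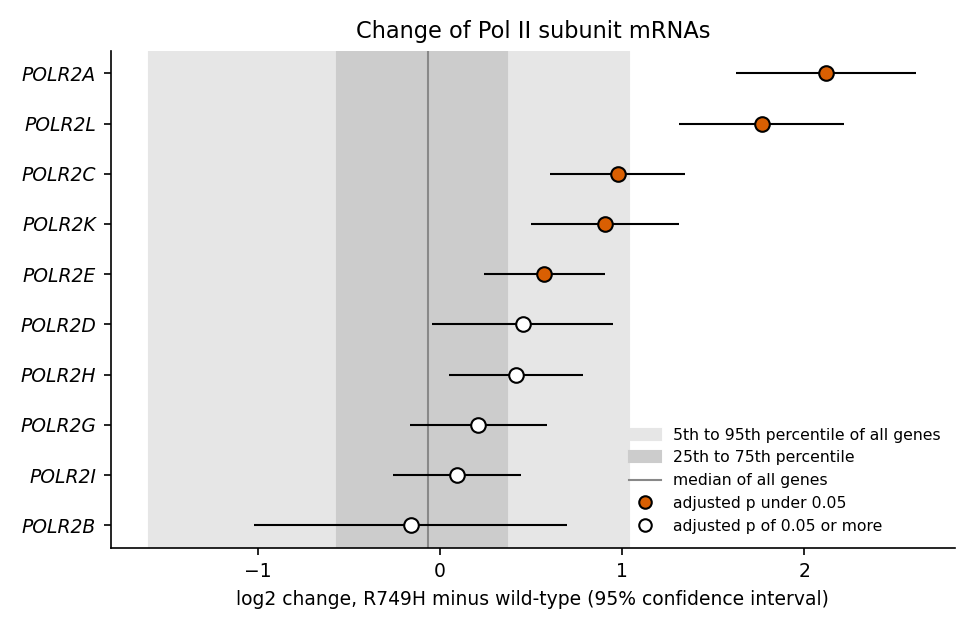
Log2 change of each subunit mRNA, R749H minus wild-type (horizontal axis), with its 95% confidence interval; filled points have an adjusted p under 0.05, and grey bands and line give the spread of all 9495 genes. POLR2A (2.12) and POLR2L (1.77) lie beyond the 95th percentile of all genes (1.04), and the other members lie within it.

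The other 5 members did not pass the test, and their intervals leave room for changes in size. The stalk subunit POLR2D had 11.2 to 14.2 RPM in wild-type and 12.2 to 22.2 in R749H libraries, a change of 0.45 with a 95% interval of -0.04 to 0.95 (adjusted p = 0.17, limma). The shared subunit POLR2H changed by 0.42 (0.05 to 0.78; adjusted p = 0.0919), the stalk subunit POLR2G by 0.21 (-0.17 to 0.59; adjusted p = 0.412) and POLR2I by 0.09 (-0.26 to 0.45; adjusted p = 0.718), all in limma. The groups overlapped in each.

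POLR2B, the other large subunit of the active centre, was the least read member. It had 14.1, 2.92, 5.87, 5.46 and 4.37 RPM in wild-type and 6.43, 7.12, 2.93 and 4.84 in R749H libraries. Wild-type replicate 1 alone lay high, and the remaining libraries of both groups overlapped. From only 11 to 60 reads per library, the change was -0.16 with a 95% interval of -1.02 to 0.70 (adjusted p = 0.806, limma), and it was 0.16 without wild-type replicate 1 and 0.12 without R749H replicate 3.

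The order of the subunits differed between the groups, and levels need no correction for length, since the reads of a molecule lie at its 3’ end only. The share of 3’ ends recovered can still differ between genes. Reads whose As could come from the genome, and ends beyond 5 kb of a stop codon, were left out by the authors. How far this affects the order was not tested. In wild-type cells POLR2I was highest (1389 RPM), followed by POLR2E (570), POLR2L (549), POLR2G (201), POLR2H (113), POLR2A (84.5), POLR2C (79.5), POLR2K (17.8), POLR2D (12.4) and POLR2B (6.54). The ranges overlapped between POLR2E and POLR2L, POLR2H and POLR2A, POLR2A and POLR2C, and POLR2D and POLR2B. In R749H cells the order was POLR2L (1878), POLR2I (1480), POLR2E (850), POLR2A (368), POLR2G (236), POLR2C (158), POLR2H (150), POLR2K (33.4), POLR2D (17.5) and POLR2B (5.33). There the ranges overlapped between POLR2L and POLR2I, POLR2A and POLR2G, POLR2G and POLR2C, and POLR2C and POLR2H. POLR2A rose from the sixth to the fourth place.

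As a share of the reads of the 10 subunit genes, which needs no scaling between libraries, POLR2A went from 2.80% ± 0.906 in wild-type (SD, n = 5) to 6.99% ± 0.963 in R749H libraries (SD, n = 4), and POLR2L from 18.2% ± 3.90 to 35.9% ± 4.17. Both shares were higher in every R749H than in every wild-type library. The shares of POLR2I, from 45.9% ± 5.12 to 28.9% ± 3.77, and POLR2G, from 6.65% ± 0.436 to 4.55% ± 0.515, were lower in every R749H library. A share falls when others in the sum rise, and no test was made on these shares.

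The extra POLR2A reads lay at the poly(A) site the gene already used in wild-type cells. POLR2A had 18 3’ end positions and 8901 reads in all, of which 8877 fell at 6 positions between 430 and 443 nt past the stop codon, a span of 14 nt. This stretch held 99.5% to 100% of the reads in each library, and 99.8% of the increase in RPM. The 24 reads outside it (0.270%) were spread over the other positions, from 104 to 3751 nt.

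The most used position, 433 nt past the stop codon (chr17:7417929), took 95.02% ± 1.04 of POLR2A reads in wild-type (SD, n = 5) and 95.02% ± 1.03 in R749H libraries (SD, n = 4), and 94.8% of the increase. Its level was 57.3, 66.0, 93.0, 66.6 and 120 RPM in wild-type and 239, 366, 304 and 489 in R749H libraries, without overlap. Its change was 2.12 ± 0.24 (log2, SE; adjusted p = 0.000127, limma). The positions at 430 nt (2.03% and 2.02% of the reads) and 439 nt (1.97% and 2.31%) rose by 2.07 (adjusted p = 0.0146) and 2.44 (adjusted p = 0.00564) in limma, and at 430 nt the groups overlapped. Of all 21817 positions tested, 7.18% were called higher and 5.71% lower (12.9% in all). How often the groups did not overlap over all positions was not counted. The remaining positions of the stretch, at 432, 438 and 443 nt, had 31, 4 and 6 reads and were too low to test.

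**Figure D3:**
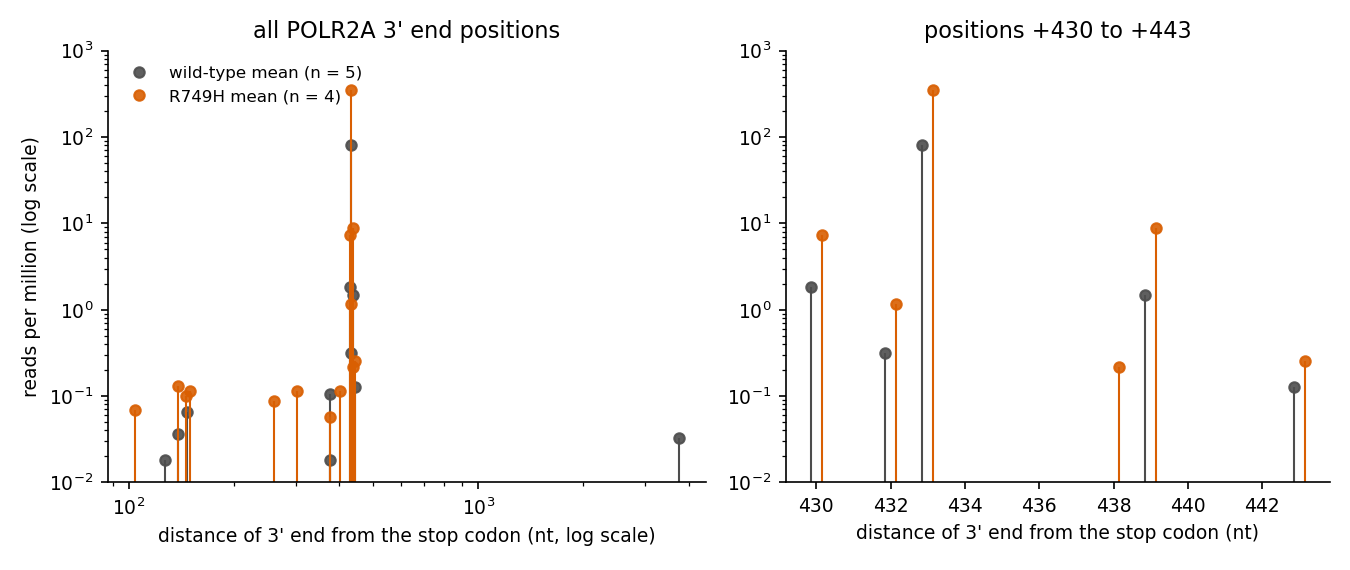
Mean RPM (vertical axes, log scale) at each POLR2A 3’ end position by distance from the stop codon in nt, for all positions (left, log horizontal axis) and for 430 to 443 nt (right); grey is wild-type (n = 5) and orange R749H (n = 4), and positions at 0 in a group are not drawn. The position at 433 nt is the highest in both groups, at 80.5 and 349 RPM.

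In the GENCODE annotation lifted to GRCh37, this site lies on the plus strand of chromosome 17, in an exon of a POLR2A transcript with no coding sequence defined, beyond the stop codon that ends at chr17:7417496 and 4 nt before the annotated end of the transcript. The AATAAA shown above starts 22 nt before the most used position. The sources used here do not say which poly(A) site the integrated Rpb1 plasmid has, and whether transcripts of the plasmid contribute to the POLR2A reads was not tested. The share of POLR2A reads downstream of the median position was 2.21% ± 1.15 in wild-type (SD, n = 5) and 2.42% ± 1.02 in R749H libraries (SD, n = 4), and the change in log2 odds was 0.24 with a 95% interval of -0.87 to 1.35 (adjusted p = 0.898, limma).

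When 3’ ends no more than 24 nt apart were joined into sites, the members had 15 sites with enough reads to test, of which 9 were called higher and none lower, against 9.34% and 10.3% of all 12062 sites (19.6% called in all). These were the single POLR2A site and both tested sites of POLR2C, POLR2E, POLR2K and POLR2L. Members with several sites thus had a called increase at each tested site, except POLR2D, of whose pair neither was called. All called sites belong to members called at gene level, and their reads are part of those gene totals. The count of called sites is therefore not independent of the gene calls.

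POLR2C used sites 565 and 890 nt past the stop codon, both in the 3’ UTR. The upstream site went from 58.9 ± 12.9 to 108 ± 20.1 RPM (SD, n = 5 and 4; log2 change 0.88, adjusted p = 0.0105, limma), and the downstream site, which ends at the annotated end of the gene, from 20.5 ± 6.89 to 49.98 ± 11.3 (log2 change 1.32, adjusted p = 0.00299, limma). The downstream site held 26.4% ± 11.4 of POLR2C reads in wild-type and 31.5% ± 3.14 in R749H libraries, and these shares overlapped. POLR2K ended at 297 and 687 nt in its 3’ UTR on chromosome 8, with changes of 1.22 (adjusted p = 0.012) and 0.73 (adjusted p = 0.0402) in limma. The call at 687 nt was lost when any of 5 of the 9 libraries was left out, and that at 297 nt without R749H replicate 2 (adjusted p = 0.0536, limma).

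POLR2L reads lay almost wholly at 167 nt, 484 nt before the annotated end of the gene. This site rose from 544 ± 124 to 1865 ± 502 RPM (SD, n = 5 and 4; log2 change 1.77, adjusted p = 0.000112, limma). A minor site at 582 nt rose from 5.14 ± 2.24 to 12.2 ± 2.86 (log2 change 1.33, adjusted p = 0.0163, limma), a call that was lost without R749H replicate 2 (adjusted p = 0.0606). That site lies opposite an exon of CD151 on the other strand.

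POLR2E had 97.8% of its reads at 1319 nt, the annotated end of a transcript, with 559 ± 59.1 RPM in wild-type and 829 ± 116 in R749H libraries (SD, n = 5 and 4; log2 change 0.57, adjusted p = 0.0219, limma). The call was lost without R749H replicate 2 (adjusted p = 0.0651) or replicate 4 (adjusted p = 0.0621). A distal site at 4375 nt lies 1463 nt past the annotated end of the gene, opposite an intron of ARHGAP45. It had 10.2, 7.10, 9.79, 6.92 and 10.3 RPM in wild-type and 28.2, 12.6, 20.8 and 16.1 in R749H libraries, without overlap (log2 change 1.08, adjusted p = 0.0115, limma). Whether these reads come from POLR2E transcripts was not tested, nor was it counted how often the groups did not overlap over all sites.

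POLR2D ended at 1441 and 4554 nt, both in its 3’ UTR, with changes of 0.81 (adjusted p = 0.153) and 0.12 (adjusted p = 0.811) in limma. POLR2B, POLR2G, POLR2H and POLR2I each had 1 tested site, at 170, 202, 232 and 45 nt, and the change of each site was that of its gene (-0.16, 0.21, 0.42 and 0.09).

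**Figure D4:**
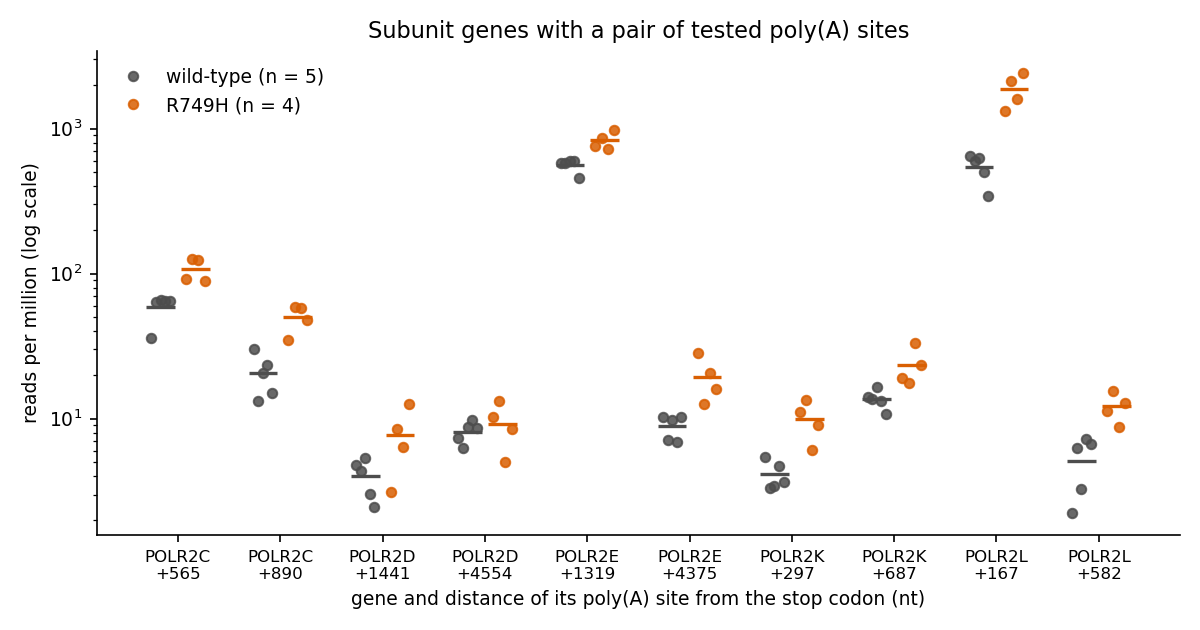
RPM (vertical axis, log scale) at the tested poly(A) sites of the 5 members with a pair of them, labelled by distance from the stop codon in nt; each point is 1 library and each line the mean. The R749H points of every site lie above all wild-type points, except at the sites of POLR2D. How often this held over all sites tested was not counted.

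The use of one site against another within a member gave no call. Of 8864 sites tested for their share of the gene's reads, 0.553% were called (0.248% with a higher share and 0.305% with a lower share in R749H cells), 1458 had an unadjusted p under 0.05, and none of the 11 member sites tested was called in limma. The smallest adjusted p, 0.284 in limma, belonged to a minor POLR2E site at 2883 nt that went from 0.198% to 0.0698% of the gene's reads. In simulated data this test missed most planted changes, so its lack of calls does not show that the shares were equal.

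The share of reads downstream of each gene's median position, taken over all libraries, describes part of a shift of its 3’ ends. Where most reads end at the same position, as at 433 nt in POLR2A, moves between it and upstream ends leave this share unchanged. Of 7758 genes tested, 0.116% were called (0.0387% with a higher and 0.0773% with a lower downstream share) and 815 had an unadjusted p under 0.05, and none of the 10 members was called in limma. POLR2E had the narrowest interval, with 17.3% ± 0.439 of its reads downstream in wild-type and 15.8% ± 0.664 in R749H libraries (SD, n = 5 and 4; log2 odds -0.15, 95% interval -0.33 to 0.02, adjusted p = 0.541). The groups did not overlap there, but how often this held over all genes was not counted for this measure. Most of these POLR2E reads lay within its main site, which held 98.04% of the gene's reads in wild-type and 97.5% in R749H libraries. The interval of POLR2B, from -0.40 to 2.83, was the widest.

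Genes near POLR2A on chromosome 17 were mostly lower in R749H cells. Among all genes tested, 12.9% were called lower and 10.9% higher. Within 2 Mb, 25 of 54 tested genes were called lower and 4 higher, with a median change of -0.63, and within 5 Mb 41 of 101 were lower and 5 higher, with a median of -0.64. Over the whole chromosome, 191 of 611 genes were lower and 50 higher, with a median of -0.44. None of the neighbours within 5 Mb rose as much as POLR2A, and 1 gene on the chromosome did, whereas several neighbours had a larger change in the lower direction, down to -4.92. Around POLR2L on chromosome 11 the median of 41 genes within 2 Mb was -0.07, with 4 higher and 4 lower. The part of such regional differences between the lines in the results was not tested.

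**Figure D5:**
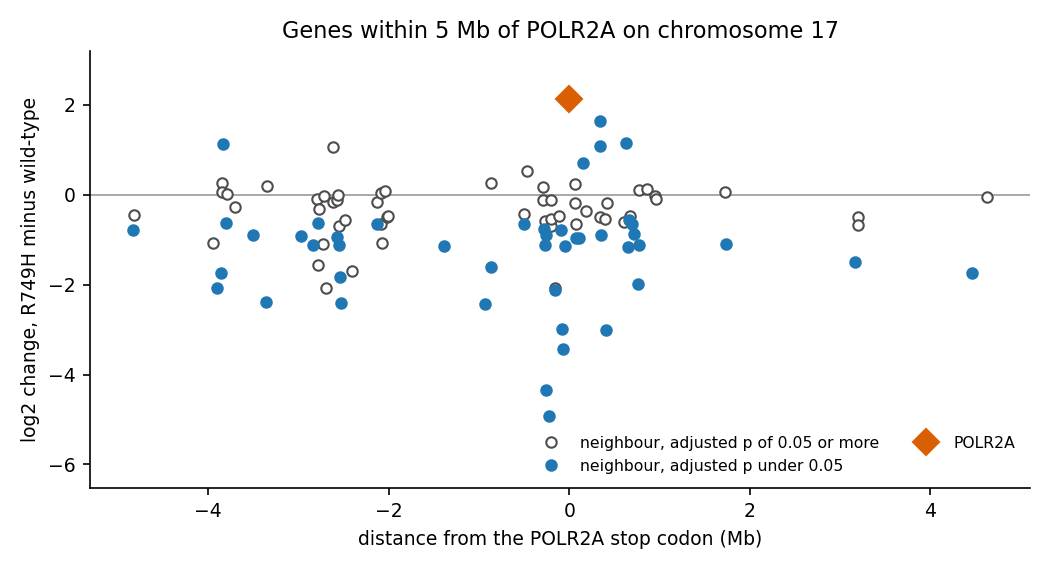
Log2 change, R749H minus wild-type (vertical axis), of the 101 tested genes within 5 Mb of POLR2A by distance from its stop codon in Mb (horizontal axis); filled circles have an adjusted p under 0.05. POLR2A (diamond, 2.12) lies above all of them, and 41 filled circles lie below 0.

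The genes whose centred log2 levels were most like those of POLR2A over the 9 libraries were CYR61 (root mean square difference 0.229), TUBA4A (0.236), CDKN1A (0.243), BTG2 (0.291) and SERTAD1 (0.291). CDKN1A encodes the cell cycle inhibitor p21, BTG2 an antiproliferative protein and TUBA4A an α-tubulin. CDKN1A went from 96.3 ± 33.8 to 426 ± 118 RPM (SD, n = 5 and 4). POLR2L was at place 88 in this order, with 0.525. The genes most like POLR2B were MORF4L1, CENPP, HOMER2, PHKB and PPFIA1, with differences of 0.296 to 0.316 at levels as low as its own. These are descriptions over 9 libraries in 2 groups, in which any gene with a similar change comes close.

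Other subunits and partners of Pol II did not move as one. POLR2F and POLR2J, subunits of the same enzyme, changed by 0.54 (adjusted p = 0.109) and 0.32 (adjusted p = 0.595) in limma. Of 18 tested subunits of Pol I and Pol III, 1 was called higher and 3 lower, with a median change of 0.10. POLR1A and POLR3B fell by 1.23 and 1.22 on the log2 scale, and POLR3GL rose by 0.82. The other large subunits of the same enzymes, POLR1B and POLR3A, were both at -0.06 (adjusted p = 0.876 and 0.848, limma). Over all genes tested, 10.9% were called higher and 12.9% lower.

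Of 15 tested general transcription factors, which bring Pol II to promoters, 3 (20%) were called higher and none lower, with a median change of 0.37. These were GTF2F2 (0.76), GTF2A2 (0.66) and the TFIIH helicase ERCC2 (0.61). Of 16 factors for Pol II assembly and nuclear import, 4 (25%) were called higher and 2 (12.5%) lower, against 10.9% and 12.9% of all genes. Their median change was 0.20. The largest changes called were in WDR92 (-1.62), PDRG1 (1.46) and the GTPases GPN3 (0.95) and GPN2 (-0.88).

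None of 10 tested phosphatases, kinases and binding proteins of the POLR2A C-terminal domain was called higher and 3 were called lower, with a median of -0.32. These were the kinase CDK12 (-1.81) and the small phosphatases CTDSP1 (-1.34) and CTDSPL (-1.01). Rpb1 ubiquitylation is the pathway that removes stalled or inhibited Pol II. The list drawn up for it had 13 tested genes and may hold genes outside it, such as UBAP1. None was called higher and 2 (15.4%) were called lower, near the 12.9% of all genes, with a median of -0.19. The groups overlapped in both, which were the ubiquitin ligase WWP2 (-0.73, adjusted p = 0.0494, limma) and RBX1 (-0.50, adjusted p = 0.0388, limma), a subunit of cullin ligases.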

How the data were processed

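3’ READS libraries of 5 wild-type and 4 R749H samples were used; the 4 eNETseq samples are not analysed here. The authors trimmed the reads, mapped them to hg19, kept those with non-templated As, dropped mitochondrial reads and assigned 3’ ends to genes within 5 kb of a CCDS stop codon. The submitters' processing notes name Bowtie2 2.3.2, whereas the study's methods name bowtie for the 3’ READS libraries and Bowtie2 for the eNETseq reads. The deposited signal values are reads per 3’ end position that the authors scaled to a fixed total of poly(A) reads per library. Dividing by the smallest step gave whole reads for 100% of the values in each library (within 0.05 of a read), and their sums equalled the authors' pooled values at all 176030 wild-type and 134734 R749H positions. Reads were summed per gene, and 15475 of 15558 CCDS entries ended at a stop codon of the GRCh37 annotation.

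Log2 RPM (0.5 reads added, TMM factors, filterByExpr) were made with edgeR 4.0.16 and tested with limma 3.58.1 in R 4.3.3, and so were shares as log2 odds in genes with a mean of at least 20 reads, and for sites at least 5 reads both at the site and elsewhere in the gene. p-values were two-sided and adjusted by the Benjamini-Hochberg method over all features, with 0.05 as the threshold. Fold changes are on the scale with 0.5 reads added. Scripts were tested on simulated data. Mean estimates of planted gene changes reached most of the planted size, which does not exclude a small bias. Most planted gene changes of 2-fold were not called, and larger ones mostly were. PCR duplicates cannot be told from molecules.

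The members, gene lists and tests were chosen with earlier results of these data known. Named were all members, their most used and called sites, the POLR2A positions, the 5 genes most like POLR2A and POLR2B, and up to 4 called genes of each list, of which 1 is not reported here. DESeq2 1.42.0 and the other settings are given in the closing section; edgeR's quasi-likelihood test, other settings for single positions and the authors' scaling for sites were chosen after seeing the data.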

Additional observations from a re-analysis of the deposited data

Results flagged for a closer look

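Of 42 groups of libraries checked for a sample far from the others, 2 were past Dixon's limit, and chance alone passes about 1 in 20. In wild-type cells, POLR2E was low in replicate 5, at a log2 level of 8.87 against 9.19 to 9.25 in the others, a gap of 0.852 of the whole range. POLR2G was high in wild-type replicate 3, at 7.96 against 7.52 to 7.59, a gap of 0.833 of the range. POLR2E was still called higher in R749H cells whichever library was left out (adjusted p 0.0116 to 0.0467, limma), and POLR2G in none of these fits.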

How the results depend on the processing

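The calls of POLR2A, POLR2L and POLR2C held in all 19 alternatives tried at gene level, with log2 changes of 1.78 to 2.297, 1.42 to 1.93 and 0.63 to 1.09. DESeq2 called 2653 genes and edgeR 2358, each with the same number of members higher, 5. Under the authors' scaling alone, 3 members were called higher, and so were 431 of all 9495 genes tested, with 2628 lower. POLR2E was 0.23 and POLR2K 0.56, no longer called on that scale. POLR2G (-0.13) and POLR2I (-0.25) changed sign, as did the sites of POLR2G (-0.13), POLR2I (-0.25) and POLR2D at 4554 nt (-0.22). The upstream POLR2C site (0.54, adjusted p = 0.0596), both POLR2E sites and the POLR2K site at 687 nt were then not called (limma). Without a filter, neither POLR2K site was called. The numbers of called site shares and downstream shares depended on the settings: 170 and 56 with 2 reads added, 90 site shares after thinning to the smallest library, and 25 downstream shares when genes were divided at the midpoint; the cause was not tested. Thinning reversed the POLR2D site at 4554 nt (-0.050) and the downstream shares of POLR2A (-0.061) and POLR2L (0.026), and the midpoint those of POLR2B (-0.37) and POLR2G (0.020), none of them called. Same-numbered libraries did not vary together (correlations of -0.07 to 0.05), and the main tests did not pair them. These correlations cannot show whether same-numbered libraries were prepared together. With a replicate block over replicates 1 to 4, 2095 genes, 5 members and 21 downstream shares were called, the downstream shares of POLR2A (-0.25) and POLR2I (-0.00088) reversed, and the sites of POLR2E at 1319 nt and POLR2K at 687 nt were not called.

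With each library left out in turn, 5 members were called in all 9 fits, and 1522 to 2664 genes, 1479 to 2808 sites, 1408 to 3359 positions, 7 to 194 site shares and 4 to 26 downstream shares were called. POLR2B ranged from -0.40 to 0.16 at gene and site level and the POLR2D site at 4554 nt from -0.058 to 0.40. Downstream shares that changed sign in these fits were POLR2A (-0.25 to 0.49), POLR2D (-0.40 to 0.019), POLR2G (-0.067 to 0.13), POLR2I (-0.0093 to 0.11) and POLR2L (-0.068 to 0.028), none of them called. The POLR2A position at 430 nt lost its call without R749H replicate 4 (1.82, adjusted p = 0.0578, limma), and the POLR2D site at 1441 nt gained one without R749H replicate 1 (1.19, adjusted p = 0.0303, limma). Leaving out positions assigned to more than 1 gene was not run, because no position was. Depth limits POLR2B and POLR2D most, with as few as 11 and 39 reads per library.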
